A study of Homo sapiens with 3 samples.

Results

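The cells described here carried abundant RNA of CHGA, the chromogranin A gene that marks hormone-secreting cells, but little RNA of the main islet hormones, of the serotonin enzyme gene TPH1 or of a neuronal gene set. They numbered 1070 of 25463 kept cells in 3 single-cell RNA libraries, with 405 cells in the KO library, 179 in the HET library and 486 in the WT library. A cell was included when it held 1000 to 40000 unique molecules (UMIs), at least 500 genes and at most 20% mitochondrial UMIs. CHGA had to reach 10 per 10000 UMIs. INS (insulin), GCG (glucagon), SST (somatostatin) and GHRL (ghrelin) each had to stay under 25 per 10000, TPH1 under 3 UMIs, and fewer than 2 of PHOX2A, TLX2 and CHRNA3 could be detected. These measured values chose the cells, so levels of those 9 genes are a description and support nothing.

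Chromogranins and secretogranins are acidic proteins that help pack peptide hormones into dense-core granules, and endocrine cells of gut and islet share them whatever hormone they make. In the pancreas, the factor NEUROG3 starts endocrine differentiation and NEUROD1, INSM1, PAX4 and PAX6 follow. Endocrine cells without a main islet hormone can be young cells, cells that make a minor peptide such as gastrin or peptide YY, or cells that lost a hormone. PAX6 is a transcription factor of eye, brain and islet that activates hormone genes in alpha and beta cells.

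The 3 libraries were made with 10x Genomics droplet chemistry from cultures of H1, a widely used line of human embryonic stem cells, that had been taken through a beta cell differentiation. KO was PAX6-/-, HET was PAX6+/- and WT carried no PAX6 lesion. The labels give neither the position of the lesion nor whether an edited line was 1 clone, and no agent other than the differentiation itself. Each genotype had 1 library, so genotype, differentiation and library cannot be told apart and no difference between genotypes was tested. Intervals are 95% and cover counting error only.

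The cells of interest held 5028825 UMIs in the KO library, 2480640 in the HET library and 6771802 in the WT library. The median cell had 11765 UMIs in KO, 12061 in HET and 12698.5 in WT. Median mitochondrial shares were 9.07% in KO and 8.61% in HET, against 6.65% in WT, and their part in the differences below was not tested. The libraries shared 26 to 43 barcodes pairwise, none of them among these cells. An automatic doublet threshold called no cell in any library and so did not work. The 8% of each library with the highest doublet scores held 11.9% of these cells in KO, 14.5% in HET and 14.0% in WT.

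Near the limits, 43 KO, 37 HET and 78 WT cells had CHGA between 10 and 15 per 10000, while 134, 108 and 198 kept cells lay outside at 5 to 10. The highest of the 4 hormones reached 15 to 25 per 10000 in 46 KO, 24 HET and 48 WT cells, and 25 to 40 in 40, 31 and 39 cells just outside. No UMI of any of the 4 hormones was found in 100 KO, 15 HET and 3 WT cells. TPH1 had 2 UMIs in 18 KO, 6 HET and 10 WT cells. Exactly 1 of PHOX2A, TLX2 and CHRNA3 was detected in 68 KO, 15 HET and 85 WT cells. Free RNA was neither measured nor subtracted. GCG, kept low by the rule, stood at 72.0 CPM (UMI counts divided by the total of the library and class, times a constant) in KO, 121 CPM in HET and 305 CPM in WT, against 8.67, 82.5 and 307 CPM in the same libraries' cells with low CHGA.

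These cells made up 4.67% of kept cells in KO (4.23 to 5.13) and 2.16% in HET (1.86 to 2.49), against 5.73% in WT (5.24 to 6.24). As a share of all cells with high CHGA they were 36.8% in KO, 28.96% in HET and 30.4% in WT. The hormone-high class, defined by at least 1 of the 4 hormones at 25 per 10000, held 4.05% of KO, 4.12% of HET and 10.8% of WT cells. The cells without a main hormone numbered 405 against 352 hormone-high cells in KO, 179 against 342 in HET and 486 against 920 in WT. The order in KO depended on the limits, with 327 against 453 cells when hormones were held under 10 per 10000, 211 against 212 with a minimum of 3000 UMIs and mitochondrial shares up to 10%, and 313 against 310 with CHGA at 20 per 10000. Without the 4 doubtful clusters described below, the class held 258 KO, 97 HET and 280 WT cells, or 3.02%, 1.18% and 3.38% of kept cells.

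**Figure D1:**
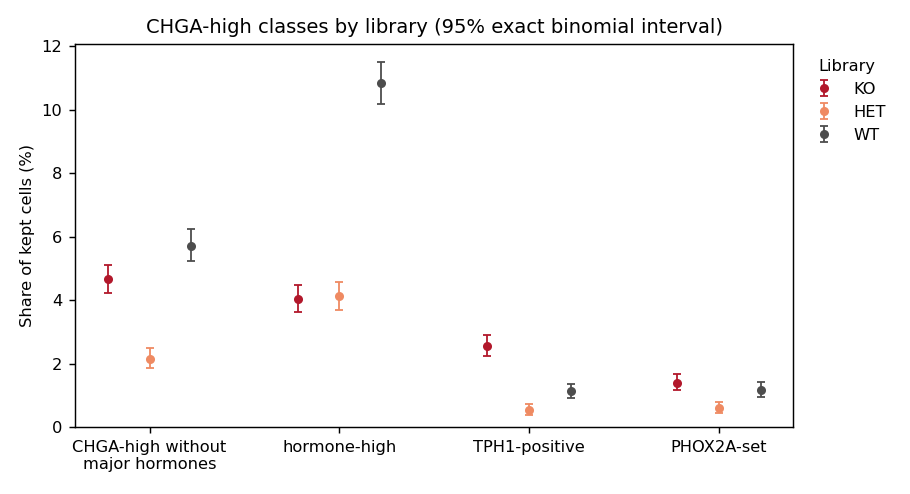
Share of kept cells (percent, vertical axis) in 4 classes of cells with high CHGA, by library, with 95% exact binomial intervals. The cells without major hormones stand at 4.67% in KO, 2.16% in HET and 5.73% in WT, whereas hormone-high cells stand at 4.05%, 4.12% and 10.8%.

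CHGB and NEUROD1 were used to check the label of an endocrine class. CHGB, a second chromogranin, stood at 142 CPM in KO, 101 CPM in HET and 139 CPM in WT after scaling with TMM factors (a correction for composition). NEUROD1 stood at 505, 394 and 492 CPM in the same libraries. In cells with low CHGA, CHGB was at most 3.2 CPM and NEUROD1 at most 12.4 CPM, without TMM factors. After thinning each cell to 3000 UMIs, NEUROD1 had a UMI in 63.8% of KO cells, 52.4% of HET cells and 49.8% of WT cells, and CHGB in 32.9%, 28.0% and 27.1%. In cells with low CHGA those shares were at most 2.88% for NEUROD1 and 1.06% for CHGB. Both markers were above cells with low CHGA in each library, and neither had a UMI in every cell. NEUROG3 was rare, with 2 or more UMIs in 8 of 405 KO, 5 of 179 HET and 17 of 486 WT cells.

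The class was a mixture. Clustering without the 9 rule genes gave 10 clusters, numbered by size, whose leading genes and sizes are given as a description and were not tested. Cluster 1 (184 cells) went against the label. Its CHGA was lowest, with a median of 16.2 per 10000, NEUROD1 stood at 47 CPM and CHGB at 10 CPM, and it was led by epithelial genes such as MSMB and FABP1, a fatty acid binding protein of intestine and liver. Cluster 2 (141 cells) had a median of 24803 UMIs, and 77.3% of its cells lay among the highest doublet scores. Cluster 8 (77 cells) had a median of 2240 UMIs and 1.04% mitochondrial UMIs. It was led by PRAC1, at 118 CPM against 0.284 CPM in the other cells of the class. Listed enterochromaffin genes without TPH1 summed to 1463 CPM there, the most of the 10 clusters. TPH1 was limited in UMIs and not per 10000, and the part of this in cluster 8 was not tested. Cluster 10 (33 cells) was led by the mitosis genes TOP2A and MKI67. Values without clusters 1, 2, 8 and 10 (435 cells), an alternative chosen after seeing the data, stand beside the results that they changed most.

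The remaining 6 clusters held 635 cells and differed in their leading genes. Cluster 3 (124 cells) was led by RGS5, TFPI2 and OR51E1 and held the most NEUROG3, at 74 CPM. Cluster 4 (122 cells) was led by PYY and PPY, the genes of peptide YY and pancreatic polypeptide, at 2729 and 898 CPM. Cluster 5 (118 cells) was led by CRH, corticotropin-releasing hormone, at 1123 CPM, with the LIM homeobox gene ISL1 at 1186 CPM and PAX6 at 706 CPM. Cluster 6 (109 cells) had the highest GAST, the gastrin gene, at 6864 CPM, with ALB, PENK (an opioid peptide precursor) and CCK (cholecystokinin) among its leading genes. Cluster 7 (101 cells) was led by the trypsinogen genes PRSS2 and PRSS1 and by genes of motile cilia. Cluster 9 (61 cells) was led by the noncoding gene AL109807.1 and the homeobox gene LHX3, with GC, the vitamin D binding protein gene, at 2580 CPM.

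The libraries filled these clusters unequally. Cluster 5 held 77 KO, 20 HET and 21 WT cells, and cluster 9 held 53 KO, 3 HET and 5 WT cells. Cluster 6 held 3 KO, 8 HET and 98 WT cells. Clusters 3, 4 and 7 held 26 to 52 KO, 17 to 29 HET and 37 to 69 WT cells each. Genes that differed between libraries took part in the clustering, so a cluster filled by 1 library may reflect that library.

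**Figure D2:**
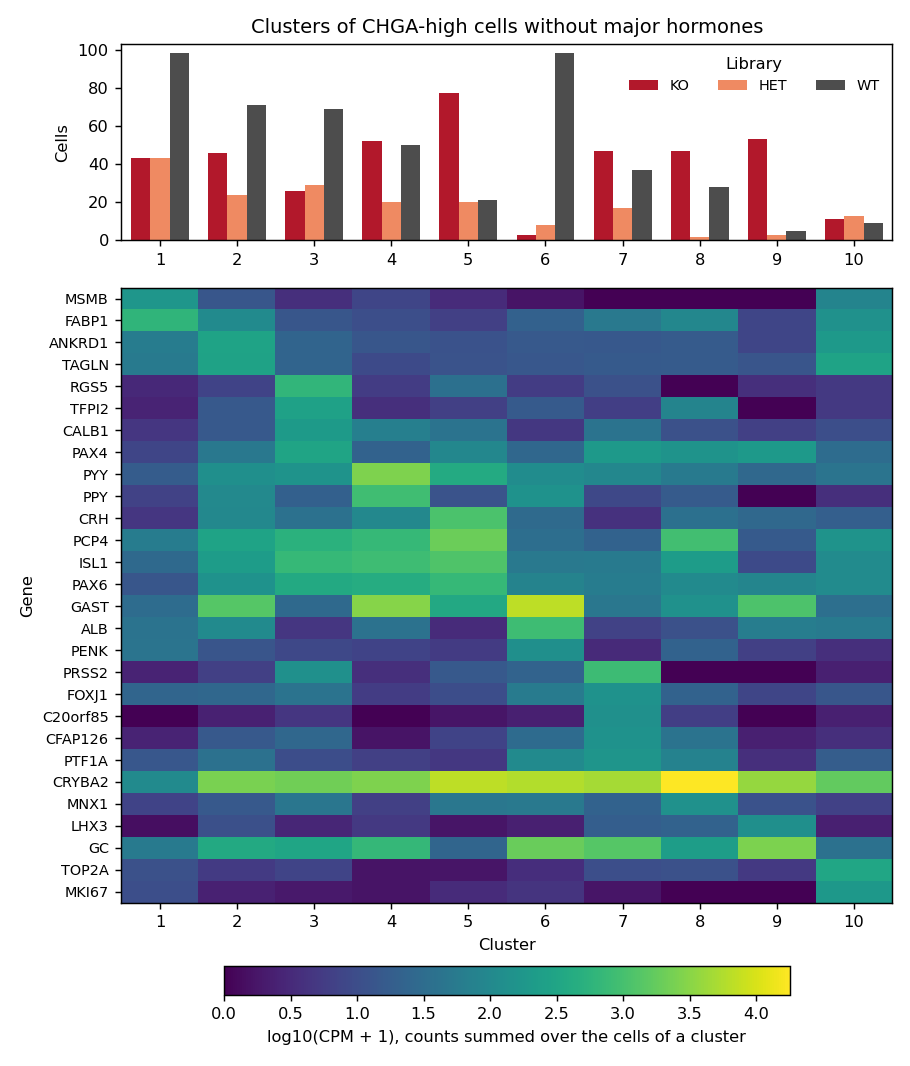
Top, cells per cluster (count, vertical axis) by library. Bottom, level of leading and chosen genes in each cluster as log10(CPM + 1), colour scale, counts summed over the cluster's cells. Cluster 6 has the highest GAST (6864 CPM) and 98 of its 109 cells are WT, and cluster 5 has the highest CRH (1123 CPM) and 77 of its 118 cells are KO.

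A minor peptide hormone or neuropeptide (from a list of 27 genes) reached 25 per 10000 in 38 of 405 KO cells (9.38%), 22 of 179 HET cells (12.3%) and 93 of 486 WT cells (19.1%). GAST was the most frequent, at that level in 12 KO, 7 HET and 53 WT cells. PYY followed with 8, 7 and 20 cells and NTS, the neurotensin gene, with 8, 5 and 16. CRH passed it in 10 KO, 2 HET and 1 WT cell. At least 2 such genes passed together in 1 KO, 3 HET and 13 WT cells. The 27 genes summed to 1484 CPM in KO, 3081 CPM in HET and 3801 CPM in WT, without TMM factors. Hormone-high cells held more, at 2835, 8580 and 9351 CPM. PYY passed in 1.42%, 19.9% and 33.4% of hormone-high cells, against 1.98%, 3.91% and 4.12% of the cells described here. GAST passed in 1.14%, 11.1% and 7.83%, against 2.96%, 3.91% and 10.9%.

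Summed over the cells of a library, GAST (chromosome 17, 41712326 to 41715969, plus strand, GRCh38) stood at 405 CPM in KO and 1736 CPM in HET, against 2208 CPM in WT. It was 5.46-fold lower in KO than in WT (5.21 to 5.72), an interval that covers counting error and no variation between cells. After thinning, 16.4% of KO cells had a GAST UMI (12.75 to 20.68). The shares were 17.9% in HET (12.38 to 24.5) and 23.1% in WT (19.29 to 27.29), with overlapping intervals. By share of cells HET thus lay nearer to KO, and by summed level nearer to WT. Without the cells at or above 25 per 10000 of GAST, its log2 ratio of KO over WT was -0.37 in place of -2.45. Those cells were chosen by GAST itself and more were WT than KO, so a smaller ratio was largely set in advance. In cells with low CHGA, GAST was at most 11.3 CPM in each library, without TMM factors. Within cluster 4, where all libraries had cells, GAST stood at 484 CPM in 52 KO cells and 10930 CPM in 20 HET cells, against 2727 CPM in 50 WT cells.

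CRH went the other way, at 293 CPM in KO and 158 CPM in HET, against 29.4 CPM in WT. The same order was seen in hormone-high cells. CRH reached 25 per 10000 in 83 of 352 KO, 25 of 342 HET and 1 of 920 WT of them. PPY was 57.6 CPM in KO and 91.5 CPM in HET, against 217 CPM in WT. CCK was 17.6 CPM in KO and 43.9 CPM in HET, against 111 CPM in WT. In all 3 of these genes the HET value lay between the others. PYY was 249 CPM in KO and 450 CPM in HET, against 477 CPM in WT, a KO over WT log2 ratio of -0.94 that passed 2-fold in 6 of 8 alternatives. NTS was 176 CPM in KO and 359 CPM in HET, against 504 CPM in WT, and stood at 253, 782 and 1280 CPM in the same libraries' cells with low CHGA. The part of free RNA in NTS was not tested. GAL (galanin), SCT (secretin) and NPW (neuropeptide W) were within 2-fold of WT in both edited libraries.

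**Figure D3:**
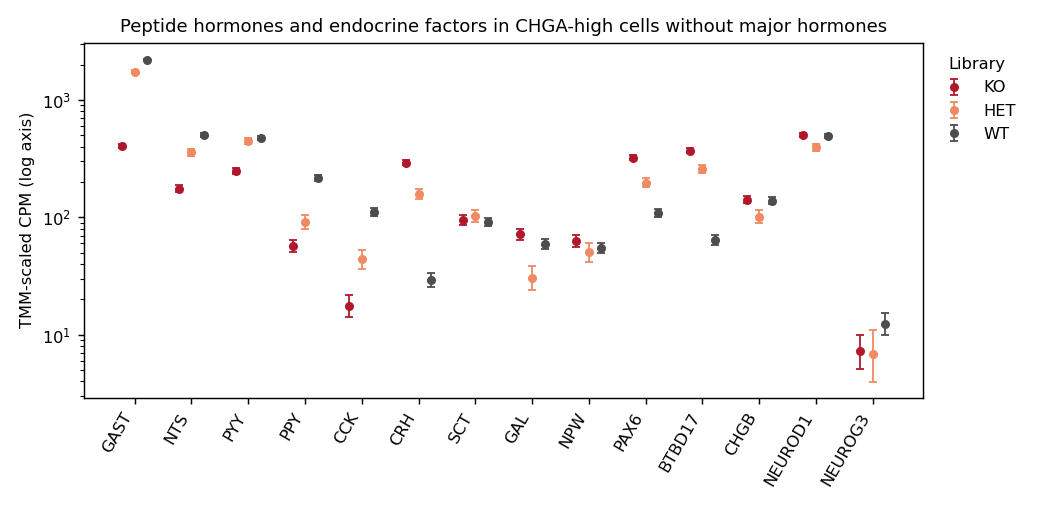
TMM-scaled CPM (log axis) of minor peptide hormones and endocrine factors in CHGA-high cells without major hormones, by library, with 95% Poisson intervals. GAST is lowest in KO (405 CPM) and CRH highest in KO (293 CPM), while CHGB and NEUROD1 lie within 2-fold in the 3 libraries.

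PAX6 RNA (chromosome 11, 31784779 to 31818062, minus strand) was highest in the KO library. It stood at 323 CPM in KO and 197 CPM in HET, against 109 CPM in WT, 2.96-fold higher in KO than in WT (2.71 to 3.24). After thinning to 3000 UMIs, 44.0% of KO cells and 33.3% of HET cells had a PAX6 UMI, against 19.3% of WT cells (59.3%, 46.9% and 36.0% before thinning). In cells with low CHGA, 1.07% of KO, 0.63% of HET and 2.13% of WT cells had one after thinning. Within cluster 3 it stood at 442 CPM in KO and 481 CPM in HET, against 313 CPM in WT, and within cluster 4 at 480 and 416 against 358 CPM. Within cluster 5, which held 77 of the 405 KO cells, it was 870 CPM in KO and 638 CPM in HET, against 176 CPM in WT. In cluster 7 the values were 88.9, 62.3 and 27.2 CPM, and clusters 6 and 9 had under 10 cells in some libraries. The part of cluster makeup in the PAX6 difference was not tested. RNA of an edited allele can still be counted, so these levels do not check the genotype. In hormone-high cells PAX6 was 514 CPM in KO, 319 CPM in HET and 479 CPM in WT, without TMM factors.

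Over all genes with at least 50 CPM in KO or WT, 46 of 3809 were at least 2-fold higher in KO (1.21%) and 112 were at least 2-fold lower (2.94%). Between HET and WT, 27 of 3753 genes passed 2-fold upward (0.719%) and 53 downward (1.41%). For KO against HET, 19 of 3669 were higher (0.518%) and 36 lower (0.981%). KO and HET were set against the same WT library, so their values are given side by side only.

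The largest ratio upward in KO was that of AL109807.1, at 62.5 CPM in KO, 5.24 CPM in HET and 5.10 CPM in WT. AL109807.1 stood at 344 CPM in cluster 9 (53 KO, 3 HET and 5 WT cells), against 8.13 CPM in the other cells of the class. CRH followed at 9.95-fold (8.57 to 11.6). BTBD17, a gene of endocrine progenitors, stood at 370 CPM in KO and 257 CPM in HET, against 64.2 CPM in WT, 5.76-fold higher in KO (5.18 to 6.41). In cluster 3 BTBD17 was 144 CPM in KO and 477 CPM in HET, against 139 CPM in WT. The values were 938 and 756 against 216 CPM in cluster 4, 546 and 834 against 142 CPM in cluster 5, and 93.8 and 88.9 against 17.5 CPM in cluster 7. The part of cluster makeup was not tested here either. TNP1 (3.74-fold in KO and 4.42-fold in HET) and KLHL4 (3.71-fold and 3.49-fold) were higher in both edited libraries. AC109466.1 (4.25-fold), ANK2 (ankyrin B, 3.69-fold), the keratin gene KRT7 (3.28-fold), the metalloprotease gene ADAM12 (3.05-fold) and PCP4 (658 CPM in KO, 378 CPM in HET, 220 CPM in WT) completed the 10 largest in KO.

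Downward in KO, ALB, the albumin gene, stood at 7.44 CPM in KO and 287 CPM in HET, against 171 CPM in WT. PTF1A, a factor of acinar and early pancreatic cells, was 10.6 CPM in KO and 52.0 CPM in HET, against 63.3 CPM in WT. MMP1 was 6.07 CPM in KO and 102 CPM in HET, against 64.4 CPM in WT. For these 3 genes KO alone was low. ALB stood at 840 CPM in cluster 6, against 49.0 CPM in the other cells of the class. That cluster held 3 KO, 8 HET and 98 WT cells, and the part of cluster makeup was not tested. PRSS2 and PRSS1 were low in both edited libraries, at 9.60 and 16.3 CPM in KO and 22.2 and 29.01 CPM in HET, against 183 and 135 CPM in WT. They are near-identical paralogs, so how reads were split between them is uncertain. CCK (6.30-fold lower in KO), NKAIN4 (7.27-fold), LPL (lipoprotein lipase, 5.54-fold), GAST and LMO2 (4.84-fold) were the rest of this set. Without clusters 1, 2, 8 and 10 the log2 ratio of LPL was -0.79, under 2-fold.

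**Figure D4:**
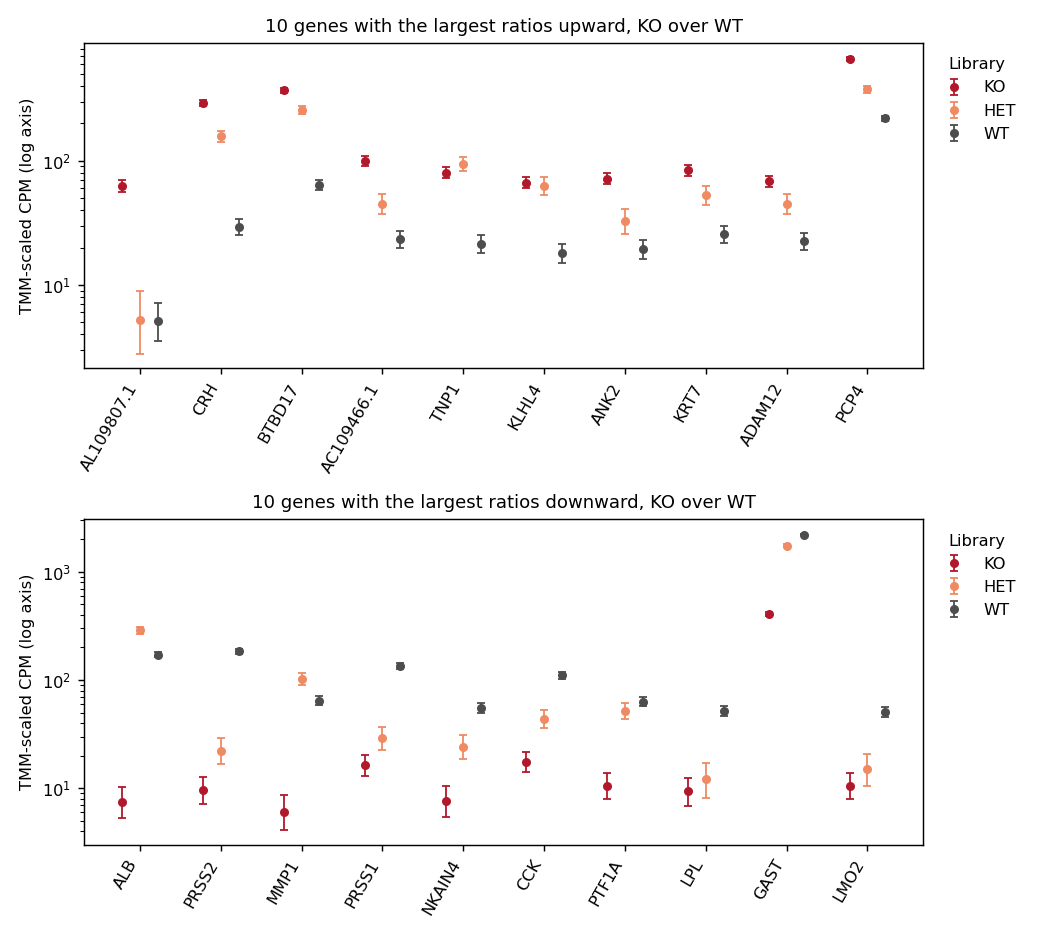
TMM-scaled CPM (log axis, 95% Poisson intervals) of the 10 genes with the largest ratios upward (top) and downward (bottom), KO over WT, in each library. HET lies between KO and WT for CRH and BTBD17, beside WT for AL109807.1, and above WT for ALB (287 CPM against 171 CPM).

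In HET, the chemokine gene CXCL14 had the largest ratio upward, at 69.7 CPM in HET and 1.35 CPM in WT, with 16.5 CPM in KO. It was among the leading genes of 2 doubtful clusters. CXCL14 stood at 255 CPM in cluster 10, against 6.05 CPM in the other cells of the class, and at 103 against 17.5 CPM for cluster 8. Cluster 10 held 11 KO, 13 HET and 9 WT cells. ANXA1 (annexin A1) was 9.51-fold higher in HET and IGFBP1 8.50-fold. FOSB, an immediate early gene, was 156 CPM in HET and 30.8 CPM in WT. It was also 108 CPM in HET and 30.7 CPM in WT in cells with low CHGA, so its difference was not restricted to this class. CRH (5.39-fold), TNP1, BTBD17, the signalling gene SHH (3.57-fold), KLHL4 and CLTRN (3.15-fold) followed. With CHGA at 20 per 10000 the log2 ratio of SHH was 0.38, and it was 0.83 without the 4 clusters. Downward, PRSS2 and PRSS1 were joined by CALB2 (calretinin, 4.54-fold lower), LPL (4.31-fold), SNCG (3.65-fold), MESP1 (3.52-fold), the phospholipase gene PLCG2 (3.51-fold), LMO2 (3.43-fold), HOXB2 (3.41-fold) and IFI6 (3.25-fold). Without the 4 clusters LPL was no longer lower in HET, with a log2 ratio of 0.68. PLCG2 was similar outside the class, at 143 CPM in HET and 541 CPM in WT in cells with low CHGA.

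Gene lists were read beside all 12142 genes with at least 5 CPM in KO or WT, of which 277 were 2-fold higher and 666 lower in KO, with a median log2 ratio of -0.02. Of 17 general endocrine genes measured, none was 2-fold apart in KO or HET, with medians of 0.04 and -0.32. Of 15 endocrine progenitor genes, PAX4 (111 CPM in KO, 97.1 CPM in HET, 54.9 CPM in WT), ST18 and BTBD17 were 2-fold higher in KO and none was lower. Of 17 minor peptide genes, 2 were higher and 11 lower in KO (median -1.52), and in HET 1 of 16 was higher and 6 lower (median -0.61).

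Of 15 beta cell genes measured in KO, 7 were at least 2-fold lower and none higher, with a median of -0.81. In HET 4 of 16 were 2-fold lower and none higher, with a median of -0.71 and 4 genes above WT. The 22 listed genes summed to 1336 CPM in KO, 1388 CPM in HET and 2122 CPM in WT. Hormone-high cells stood at 1148, 2710 and 4558 CPM, so lower levels than in WT were not restricted to this class. SLC30A8, the zinc transporter gene of insulin granules, had 0 counts in KO and was 8.46 CPM in HET and 40.7 CPM in WT. It was at least 69.2-fold lower in KO, with KO set to a floor of 3 counts in the library. FFAR1, a fatty acid receptor gene, had 1 count in KO, 15 in HET and 104 in WT. ERO1B, an oxidoreductase gene of beta cells, was 185 CPM in KO and 316 CPM in HET, against 578 CPM in WT, and was below WT in clusters 3, 4, 5 and 7 of both edited libraries, though not in cluster 6 of HET (665 CPM in 8 HET cells, against 246 CPM in WT). The pancreas factor gene PDX1 was 68.5 CPM in KO and 68.9 CPM in HET, against 105 CPM in WT.

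For HET the same comparison covered 12138 genes, 253 higher and 547 lower (median -0.03). Of 18 immediate early genes, FOSB, EGR3, NR4A1, NR4A2 and KLF4 were 2-fold higher in HET and none was lower (median 0.41). The 13 mitochondrially encoded genes had medians of 0.54 in KO and 0.51 in HET, beside the higher mitochondrial shares given above. Of 25 motile cilium genes, 6 were 2-fold lower in KO and none was higher (median -0.51).

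The study's title names IRE1α, the stress sensor that splices XBP1 mRNA, so that branch was examined. Of 30 IRE1-XBP1 genes, 1 was 2-fold lower in KO (KDELR3, a retrieval receptor gene, 3.65-fold) and 2 in HET (KDELR3 and SRPRB), and 25 were below WT in each. The medians were -0.39 in KO and -0.27 in HET, and -0.23 in KO without the 4 clusters. The 30 genes summed to 5945 CPM in KO, 6034 CPM in HET and 6863 CPM in WT. Cells with low CHGA stood at 5878, 5906 and 6766 CPM and hormone-high cells at 6631, 7059 and 7999 CPM. The lower levels in KO and HET were thus not restricted to this class. XBP1 was 174 CPM in KO and 216 CPM in HET, against 276 CPM in WT, and ERN1, the IRE1α gene, was 15.3 CPM in KO and 10.9 CPM in HET, against 21.8 CPM in WT. Splicing cannot be read from these counts. The ATF6 and PERK-ATF4 branches had medians between -0.11 and 0.12 in both contrasts, with ERO1B 2-fold lower in KO and DERL3 2-fold higher in HET. Of 10 liver genes, 5 were 2-fold lower in KO and none was higher (median -0.98). Their summed level was 5444 CPM in KO, 6731 CPM in HET and 9779 CPM in WT, against 10140, 7418 and 10950 CPM in the same libraries' cells with low CHGA, and the part of free RNA in this was not tested.

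The cells were then compared with hormone-high cells over the 3 libraries, each library giving a sum for either class (edgeR quasi-likelihood test, library as a block). Here the 3 libraries are the replicates although they differ in genotype. The rule held hormones low in these cells, so genes that accompany the hormones had to differ. Of 13742 genes tested, 1023 were higher (7.44%) and 870 lower (6.33%) at an adjusted p under 0.05. Without the HET library the counts were 254 and 125, and without the WT library 423 and 398.

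Most granule and hormone-processing genes were lower than in hormone-high cells, with 1 of 16 higher and 12 lower (median log2 fold change -0.93). CHGB stood at 137, 99.2 and 132 CPM in KO, HET and WT, against 257, 191 and 219 CPM in hormone-high cells. Its log2 fold change was -0.85 ± 0.07 (SE derived from the F statistic, edgeR adjusted p = 0.00139). SCG2, the secretogranin II gene, was the exception with higher sums, at 2510, 2040 and 2846 CPM against 974.8, 1200.5 and 1759 CPM (0.94 ± 0.13, edgeR adjusted p = 0.00578). An SCG2 UMI was found after thinning in 76.0% of KO, 69.05% of HET and 68.4% of WT cells. Hormone-high cells had shares of 68.3%, 68.5% and 81.05%, so in WT fewer of the cells described here had one. Without the 4 clusters, 1 granule gene was higher and 5 lower, with a median of -0.26. Of 23 islet transcription factor genes, 11 were lower, with a list median of -0.47, among them PAX6 (-1.27 ± 0.29, edgeR adjusted p = 0.0337) and ISL1 (-1.47 ± 0.16, edgeR adjusted p = 0.00305). GLIS3 and ONECUT1 were higher. Without the 4 clusters 3 of the 23 were higher and 6 lower (median -0.18). The log2 fold changes of GLIS3 and ONECUT1 were then -0.06 and -1.89, that of PAX6 was -0.65, and the edgeR adjusted p of PAX6 was 0.206.

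Of 15 endocrine progenitor genes, NEUROG3 was higher than in hormone-high cells and BTBD17 lower (median 0.14), while 5 were higher and none lower without the 4 clusters (median 0.47). PTF1A stood at 10.2, 51.0 and 60.5 CPM in KO, HET and WT, against 2.70, 0.78 and 4.82 CPM in hormone-high cells (3.76 ± 0.43). NEUROG3 was 7.01, 6.72 and 11.9 CPM against 3.74, 3.51 and 2.41 CPM. Neither gene overlapped between the classes, as was so for 11% of all genes tested upward and 8.94% downward. GC was among the 10 largest increases, at 731, 568 and 614 CPM against 115, 162 and 98.3 CPM (2.38 ± 0.17, edgeR adjusted p = 0.000756). FABP7 (3.21 ± 0.37), RGS5, PRSS1, the succinate receptor gene SUCNR1, the mucus-secretion gene AGR2, SNCG and the hedgehog gene IHH were others. RNASE1 and SLC26A3 were among the 10, but their log2 fold changes were -0.25 and -0.96 without the 4 clusters.

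Markers of other epithelia moved with the 4 clusters. Of 15 progenitor and duct genes, 11 were higher and none lower (median 0.59), but 2 were higher and 5 lower without those clusters (median -0.32). Of 8 intestinal genes, 6 were higher (median 1.05), against 2 higher and 2 lower of 7 without the clusters. Of 18 cell cycle genes, 6 were higher, against 1 higher and 3 lower of 14. The 10 largest decreases against hormone-high cells included SLC30A8 (-4.40 ± 0.23), CYSLTR2, FFAR1, LMO2, GAL and the transthyretin gene TTR, which was 2558, 2159 and 4311 CPM in KO, HET and WT against 13962, 12620 and 13499 CPM.

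**Figure D5:**
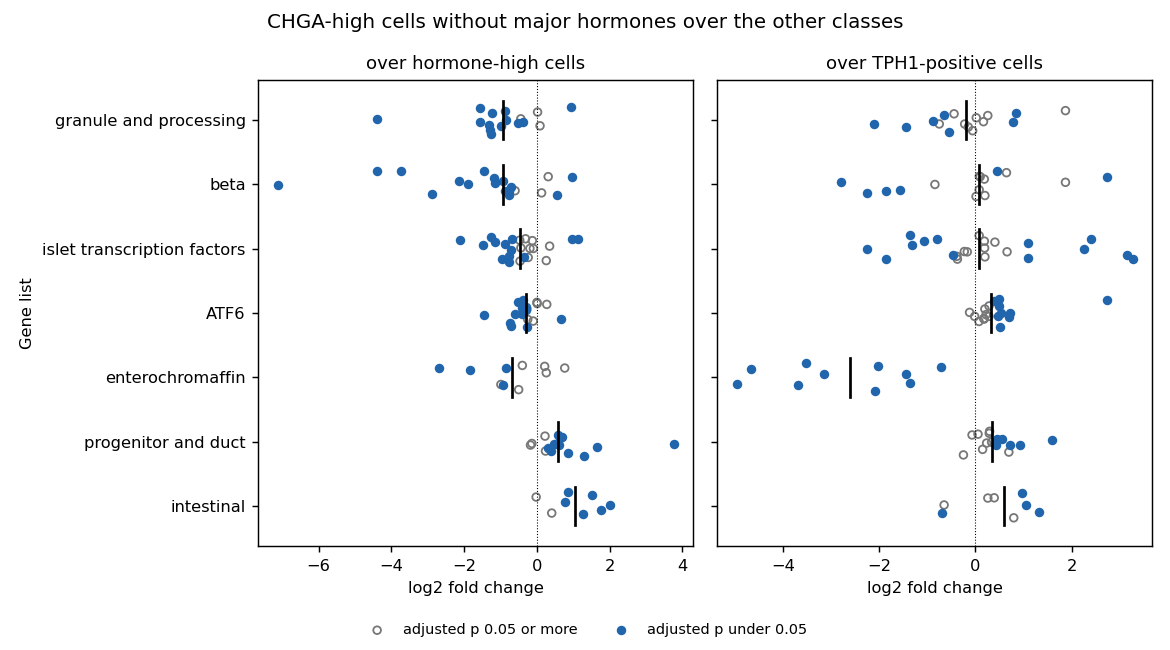
Log2 fold change (horizontal axis) of the cells without major hormones over hormone-high cells (left) and over TPH1-positive cells (right) for each gene of 7 lists (vertical axis). Filled points pass an edgeR adjusted p under 0.05, and bars mark list medians, for instance -0.93 for granule and processing genes over hormone-high cells and -2.62 for enterochromaffin genes over TPH1-positive cells.

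Genes of motile cilia were looked at because they led cluster 7. Their list was assembled after that cluster had been seen, so their levels are a description with no test. FOXJ1, the main regulator of motile cilium genes, stood at 27.8, 32.4 and 40.1 CPM in KO, HET and WT, against 8.10, 12.1 and 11.1 CPM in hormone-high cells. CFAP126, which encodes an axoneme protein, was 20.5, 23.7 and 24.9 CPM against 2.49, 2.34 and 3.86 CPM. DRC1, of the dynein regulatory complex, was 7.01, 10.3 and 17.2 CPM against 1.46, 1.56 and 2.65 CPM. TEKT1, a tektin, was low in both classes, at no more than 4.87 CPM in these cells and 0.40 CPM in hormone-high cells. The summed level of the 31 listed genes was 651 CPM in KO, 724 CPM in HET and 844 CPM in WT, against 380, 313 and 342 CPM in hormone-high cells and 192, 230 and 203 CPM in cells with low CHGA. TPH1-positive cells stood at 572.5, 780.3 and 566.1 CPM, so such levels were not particular to this class. Cluster 7 held 2923 CPM, and the other 9 clusters held 246 to 965 CPM. After thinning, 6.41% of KO, 10.1% of HET and 9.33% of WT cells had a FOXJ1 UMI, against 2.13% of KO, 3.604% of HET and 2.67% of WT hormone-high cells.

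RFX factors, which drive cilium genes, bind a palindromic X-box whose arm reads GTTGCC. In RefSeq promoter windows (GRCh38.p14), 52.0% of the 25 windows matched to 21 of the 31 cilium genes held this arm on either strand in the 250 bases before the start, against 10.2% of all 35116 windows. A match is a description and not a site. The stretches around it are shown for the 3 cilium genes described above, as examples of the arm near the start, with the arm or its reverse complement in capitals. They run 5′ to 3′ on the strand of the gene, at chr1:161367877-161367932 (minus strand) for CFAP126, chr2:26401879-26401919 (plus strand) for DRC1 and chr17:6831741-6831806 (minus strand) for TEKT1.
CFAP126: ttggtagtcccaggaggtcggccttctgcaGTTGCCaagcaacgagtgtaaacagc
DRC1: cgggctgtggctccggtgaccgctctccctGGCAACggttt
TEKT1: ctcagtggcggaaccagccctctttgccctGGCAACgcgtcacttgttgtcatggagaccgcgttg

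Against TPH1-positive cells, 839 of 12610 genes were higher (6.65%) and 877 lower (6.95%) by the same edgeR test. FOXJ1 was 29.3, 33.7 and 42.1 CPM in KO, HET and WT, against 17.1, 53.9 and 31.5 CPM in TPH1-positive cells, so the classes overlapped. All 10 enterochromaffin genes measured were lower, among them the vesicular amine transporter gene SLC18A1 (-3.69 ± 0.21) and DDC, the last enzyme of serotonin synthesis (-2.10 ± 0.11). These genes accompany TPH1, which the rule held low. Without the 4 clusters, 9 of 10 were lower.

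Against hormone-high cells, none of 18 minor peptide genes was higher and 6 were lower (median -1.29). Of 16 minor peptide genes, 5 were higher than in TPH1-positive cells and 7 lower (median -0.36). Islet transcription factor genes also went both ways, with 6 of 23 higher and 7 lower, and beta cell genes had 2 of 15 higher and 4 lower. PYY stood at 253, 459 and 478 CPM in KO, HET and WT, against 8.54, 5.53 and 28.2 CPM (4.69 ± 0.20, edgeR adjusted p = 8.11e-08). GAST was 412, 1771 and 2212 CPM against 81.8, 259 and 202 CPM (2.87 ± 0.16). ISL1 (3.17 ± 0.19) and PAX6 (2.26 ± 0.13) were among the factors that were higher. These 4 genes did not overlap between the classes, as was so for 10.2% of all genes tested upward and 10.8% downward. PRSS2 had the largest fold change, at 9.77, 22.6 and 184 CPM against 0.31, 0 and 0.66 CPM. The 10 largest decreases included PRAC1, which led cluster 8, and MME, TWIST1, INHBA and COL5A2. SHISAL2B, CRH, PCP4 and PPY were also among the 10 largest increases.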

How the data were processed

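The authors deposited raw UMI counts per gene and barcode. Per the file headers, Cell Ranger 6.1.2 wrote these matrices. Genome GRCh38 and the tool Seurat appear in the submitters' processing notes. How barcodes were selected, and with which aligner settings, is not stated there. Of the 33538 gene identifiers, 33484 occur in GENCODE 29 (GRCh38), which gave the gene coordinates. All 29021 barcodes were read.

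Counts were summed per library and class and scaled to CPM with TMM factors (edgeR 4.0.16, R 4.3.3). Levels have exact Poisson intervals, shares Clopper-Pearson intervals, and ratios between libraries exact binomial intervals of their counts. Genes needed 50 CPM and a ratio of 2 to be counted between libraries, and list members 5 CPM. Classes were compared with edgeR's quasi-likelihood test after filterByExpr, Benjamini-Hochberg adjusted, with DESeq2 1.42.0 as an alternative. Values after ± are the absolute log2 fold change divided by the square root of the test's F statistic, and edgeR does not report them. With 3 libraries of different genotype as replicates and as blocks, p-values set a class difference against its variation from library to library. The tests were first tested on simulated counts. Clustering of the cells (scanpy 1.11.5) used 2000 variable genes, 20 components, 15 neighbours and Leiden resolution 0.6, without integration. Doublets were scored with Scrublet and kept.

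Genes were named as the 10 largest ratios or fold changes in each direction, with at least 50 CPM, plus rule genes, markers, minor peptides with 50 CPM and up to 4 members of each list per direction with 20 CPM. Other genes, the motile cilium list and the genes shown by cluster were chosen after their values were seen. The cells and lists were chosen with earlier results of these data known. Some results are not reported here.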

Additional observations from a re-analysis of the deposited data

Results flagged for a closer look

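AGT, the angiotensinogen gene, had opposite directions in neighbouring classes. In the cells without major hormones it stood at 15.9 CPM in KO and 63.8 CPM in WT, a log2 ratio of -2.01. In hormone-high cells it was 113 CPM in KO and 51.5 CPM in WT, a log2 ratio of 1.13. With 1 library per genotype the difference was not tested.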

How the results depend on the processing

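No paired analysis was possible because each genotype had 1 library. With CHGA at 20 per 10000, hormones under 10 per 10000, or a minimum of 3000 UMIs with up to 10% of them mitochondrial, the shares were 3.61%, 3.77% and 2.72% in KO, 1.47%, 1.72% and 1.56% in HET, and 4.21%, 4.63% and 4.88% in WT. A floor of 20 CPM gave 92 higher and 262 lower genes in KO and 62 and 164 in HET. Without the 4 doubtful clusters the shares were 3.02%, 1.18% and 3.38% in KO, HET and WT. In KO 69 genes were then higher and 130 lower, with 35 of 46 and 78 of 112 shared, and in HET 53 and 71, with 17 of 27 and 32 of 53 shared. Against hormone-high cells, higher and lower counts were 536 and 453 with DESeq2, 130 and 58 with no library block, and 459 and 422 with CHGA at 20. They were 1467 and 1435 with no filter on low counts and 596 and 677 without the clusters. Leaving out a library gave 254 to 1497 higher and 125 to 1246 lower. Against TPH1-positive cells they were 355 and 450 with DESeq2, 181 and 306 with no library block, 500 and 582 with CHGA at 20, and 1291 and 977 with no filter. Leaving out a library gave 605 to 800 higher and 624 to 865 lower. Some list medians against hormone-high cells changed sign without the clusters, among them liver genes (0.789 to -0.789) and progenitor and duct genes (0.59 to -0.317). Among list medians and named genes set against WT, 4 of the larger values changed sign. The cell cycle median was -0.338 in KO without the clusters and -0.16 in HET when the 8% of cells scoring highest as doublets were removed. The mesenchymal median in HET was 0.0309 with each cell weighing the same, and LPL in HET had a log2 ratio of 0.68 without the clusters. The causes were not tested. Of 479 alternative values of named genes, 459 stayed on the same side of 2-fold. HET rests on 179 cells, the fewest.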
